A study of Mus musculus with 8 samples.

Results

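The genes described here are 10 mouse genes of the Toll-like receptor (TLR) system, taken by symbol from a gene table of 32285 genes. They are the receptors Tlr1, Tlr2, Tlr3, Tlr4, Tlr6, Tlr7 and Tlr9, the receptor homolog Cd180, the adaptor Myd88 and the chaperone Unc93b1, and each had 1 row in the table. Their transcripts were counted by single-cell RNA-seq in 8 libraries of spleen cells from C57BL/6J mice at 2 months of age, with 2 libraries in each of 4 groups. The cKO mice (Eif3e fl/fl Cγ1Cre Rosa26-YFP LSL) lack Eif3e, a subunit of translation initiation factor eIF3, wherever Cγ1Cre has acted, and control littermates carried Cγ1Cre and the reporter. Cγ1Cre is driven from the Ig γ1 constant region, so that it acts in activated B cells, and the reporter marks with YFP the cells in which it has acted. From each genotype, total live cells (control total and cKO total) and sorted YFP+ cells (control YFP+ and cKO YFP+) were sequenced in batches 1 and 2. Each library was a pool of 2 to 3 mice, and the total and YFP+ libraries of a genotype and batch came from the same pool of mice, so the total libraries also hold YFP+ cells and the 2 sorts are not independent. The labels give the tissue as spleen, while the cell preparation they describe also mentions lymph nodes.

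Toll-like receptors bind molecules of microbes and, in some settings, nucleic acids of the host. Tlr3, Tlr7 and Tlr9 read double-stranded RNA, single-stranded RNA and CpG DNA inside endosomes, where Unc93b1 carries them. Tlr1, Tlr2 and Tlr6 (lipoproteins) and Tlr4 (lipopolysaccharide) act at the cell surface. Cd180, also called RP105, resembles Tlr4 but lacks its signalling domain and is displayed on B cells with the partner Ly86. Myd88 passes the signal of each Toll-like receptor named here except Tlr3, which uses Ticam1. In B cells these receptors add to the signal of the antigen receptor and can drive proliferation and antibody secretion.

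The libraries held 9566 to 11652 cells after filtering, with 71894780 to 105224903 UMIs (unique molecular identifiers, each counting 1 captured RNA molecule) per library and a median of 5250 to 6811 UMIs per cell. Pairs of libraries shared 51 to 102 cell barcodes, at most 0.971% of the smaller library. Cells were clustered with the 10 members left out, and clusters were named "-like" from marker lists. Levels are given as CPM, the UMIs of a gene per 1000000 UMIs of all cells of that class in that library. Because the kit reads the 3′ end, CPM was compared between classes and libraries for 1 gene at a time and not between genes. Eif3e itself was read at 227 to 289 CPM in all 8 libraries, but the sources used here do not say which exon is floxed and a 3′ tag may lie outside it, so this checks nothing about the deletion. In the naive B-like cells the cKO pool of batch 1 stood apart by Xist, with 541 CPM in its total and 715 CPM in its YFP+ library against 0.27 to 0.55 CPM in the other 6 libraries. Ddx3y, a Y-linked gene, was read in all 8 libraries, at 61.8 to 143 CPM, so that this pool held RNA of both sexes.

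In the GENCODE vM21 annotation of GRCm38, the endosomal receptor genes lie at chr8:45395665-45411080 (Tlr3, minus strand), chrX:167304929-167330558 (Tlr7, minus) and chr9:106222598-106226883 (Tlr9, plus). The surface receptor genes lie at chr5:64924679-64933563 (Tlr1, minus), chr3:83836272-83841767 (Tlr2, minus), chr4:66827584-66930284 (Tlr4, plus) and chr5:64952031-64960097 (Tlr6, minus), with Tlr1 and Tlr6 as neighbours. Cd180 lies at chr13:102693558-102739629 (plus), Unc93b1 at chr19:3935186-3949340 (plus) and Myd88 at chr9:119335934-119341411 (minus). Tlr3 overlaps the antisense gene Gm45542, Cd180 overlaps Mast4 on the other strand, and Myd88 overlaps Slc22a14 and Acaa1a. Whether counting used strand is not stated, so reads of these pairs could not be assigned with certainty.

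The promoters of Cd180, Tlr3 and Myd88 are shown here. Cd180 and Tlr3 were called lower in pre-germinal center B-like cells of the cKO YFP+ libraries below, and Myd88, called there only in a second fit with the batch as a block, was the one of these 3 with a motif match. Tlr1 and Unc93b1 also passed only in that second fit. RefSeq promoter sequences (GRCm38.p6, 250 bases before to 50 after the start) were matched for 7 of the 10 members, and not for Tlr4, Tlr7 and Unc93b1. Each is given 5′ to 3′ on the strand of its gene, and capitals mark a match to the core of the interferon-stimulated response element (GAAA, any 2 bases and GAAA), searched on both strands. That motif was in 3.44% of all 32851 promoters of this length, and GAGGAAG, an Ets family core also searched on both strands, was in 13.6%.
Cd180, chr13:102693297-102693596, plus strand: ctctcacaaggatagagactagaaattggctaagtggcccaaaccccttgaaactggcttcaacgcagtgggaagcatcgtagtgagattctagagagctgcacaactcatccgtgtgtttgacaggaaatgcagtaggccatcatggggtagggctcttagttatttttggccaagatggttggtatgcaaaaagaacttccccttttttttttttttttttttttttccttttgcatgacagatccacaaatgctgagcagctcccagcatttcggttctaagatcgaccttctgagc
Tlr3, chr8:45410331-45410630, minus strand: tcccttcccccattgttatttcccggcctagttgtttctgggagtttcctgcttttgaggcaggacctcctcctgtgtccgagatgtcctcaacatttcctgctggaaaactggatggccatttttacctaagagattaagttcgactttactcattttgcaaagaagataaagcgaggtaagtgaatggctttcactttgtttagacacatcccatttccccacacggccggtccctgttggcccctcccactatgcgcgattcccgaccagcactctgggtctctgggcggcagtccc
Myd88, chr9:119339969-119340268, minus strand: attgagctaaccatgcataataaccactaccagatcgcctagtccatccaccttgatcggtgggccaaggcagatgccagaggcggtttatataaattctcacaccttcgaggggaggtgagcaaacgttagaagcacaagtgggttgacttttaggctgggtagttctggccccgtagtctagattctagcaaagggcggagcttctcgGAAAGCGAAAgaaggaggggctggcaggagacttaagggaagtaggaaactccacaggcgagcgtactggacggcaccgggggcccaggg
The Myd88 window held 1 match to the first motif, and the Cd180 and Tlr3 windows held neither motif. Among the windows not shown, 1 of Tlr6 held 2 matches to the first motif. GAGGAAG had 2 matches in the Tlr9 window and 1 match in 1 window of Tlr1. A match is a description of the letters only.

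Tlr3, the receptor for double-stranded RNA, was highest in conventional dendritic cell-like (cDC-like) cells of the total libraries, followed by T-bet+ B-like cells (11 UMIs in 2 libraries) and marginal zone B-like (MZB-like) cells. In cDC-like cells its level was 33.3 ± 8.87 CPM (SD, n = 4 libraries). There, 191 of its 196 UMIs (97.4%) came from 73 of 490 cells, a cluster led by Xcr1, a marker of cross-presenting dendritic cells. The control MZB-like cells gave 13.1 and 14.3 CPM of the total and 16.3 and 11.8 of the YFP+ sort. The cKO MZB-like cells gave 13.0 and 5.88 of the total and 5.94 and 3.39 of the YFP+ sort, all below the control values of the same sort, but with 13.0 close to the lowest control value of 13.1 in the total sort. In naive B-like cells it was 0.743 to 1.92 CPM, so that within each of the 8 libraries the MZB-like level was 3.75 to 13.3 times the naive level. T-bet+ B-like cells, a subset marked by Tbx21 and found mostly in the control YFP+ libraries, held 5.24 and 10.9 CPM there. No Tlr3 UMI was found in plasma cell-like cells of the 4 total libraries, which allows levels of up to 0.940 to 2.79 CPM (3 counts, counting error only).

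Tlr7, the receptor for single-stranded RNA, had its highest levels in plasmacytoid dendritic cell-like (pDC-like) cells, at 147 ± 25.4 CPM (SD, n = 4), and in monocyte or macrophage-like cells, at 110 ± 16.6. Among B cells it was highest in interferon-response B-like cells (85.2 ± 16.8), then MZB-like cells (54.7 ± 13.9), and stood at 19.5 ± 5.57 in naive B-like cells. Germinal center B-like (GCB-like) cells were near the low end, at 2.76 ± 1.21 CPM, against 4.46 in T-like cells, which should lack the receptor. Within libraries the GCB-like level was 0.0679 to 0.272 times the naive level, lower in 8 of 8. Tlr9, the receptor for CpG DNA, was sparse everywhere, from 6.85 ± 2.63 CPM in pDC-like cells to 0.355 in T-like cells, and in naive B-like cells it was 1.01 to 3.81 CPM over the 8 libraries.

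**Figure D1:**
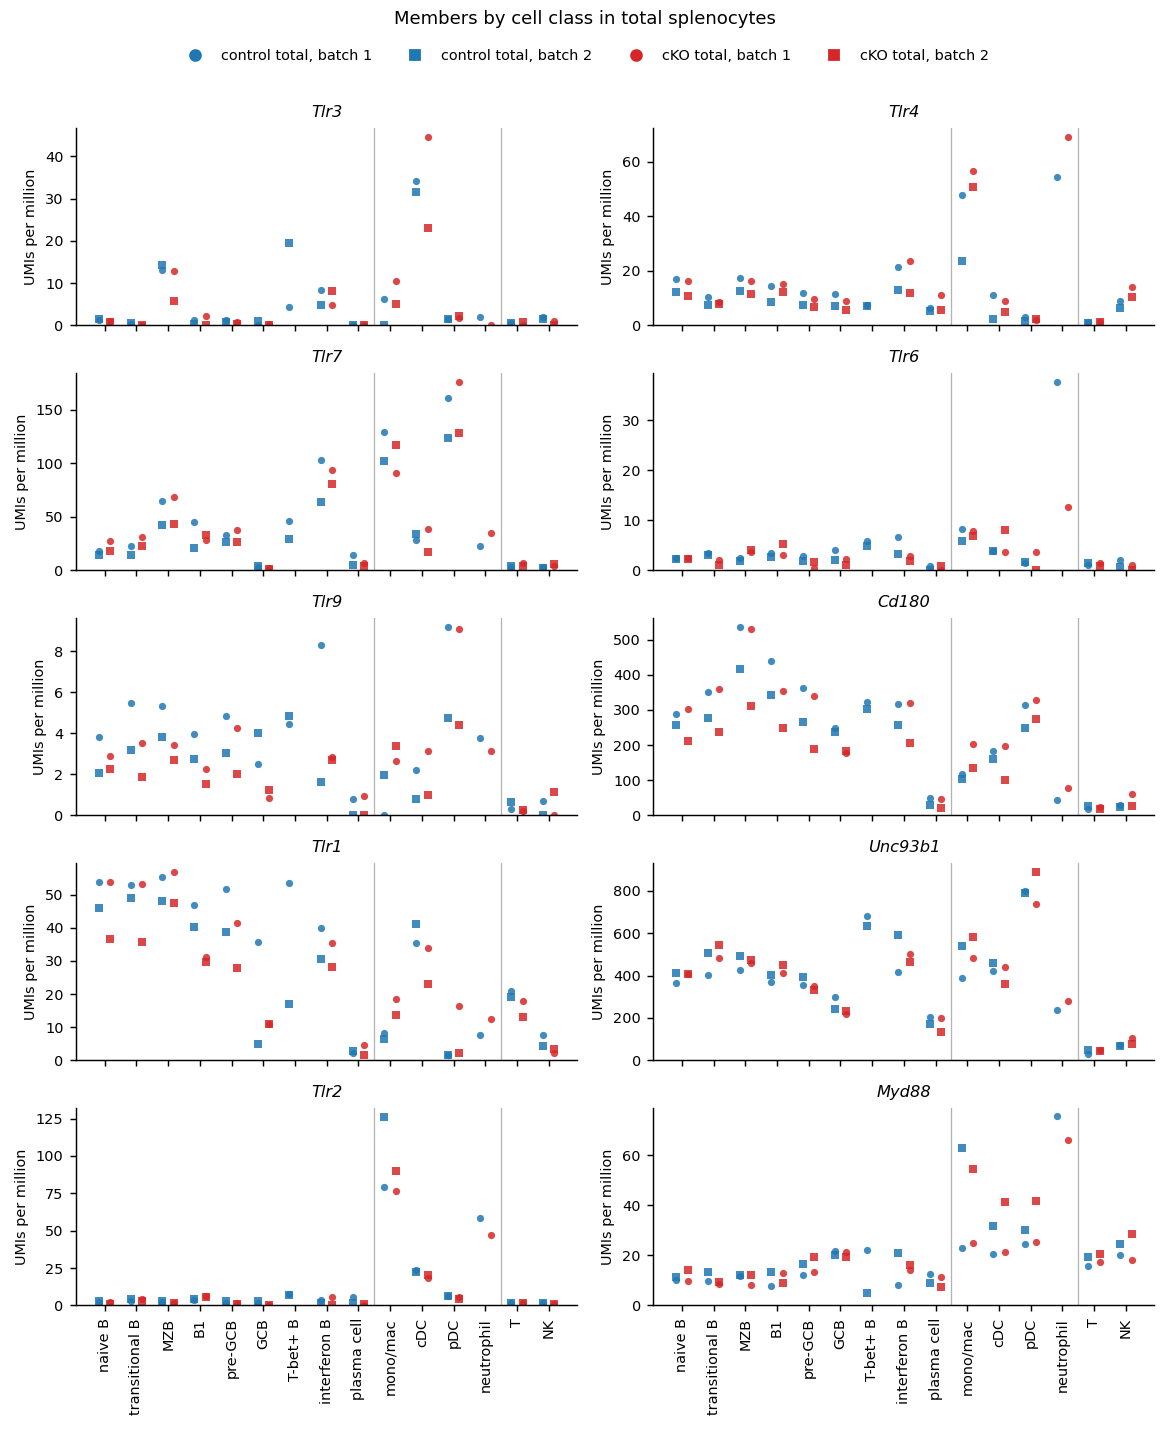
Level of each of the 10 members (CPM) by cell class in the 4 total libraries, with points for libraries, colour for genotype and marker shape for batch. Tlr3 is highest in cDC-like cells, followed by T-bet+ B-like and MZB-like cells, Tlr7 in pDC-like and monocyte or macrophage-like cells and Cd180 in MZB-like cells, while the genotypes overlap in most classes.

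Of the surface receptors, Tlr1 was highest in B cell classes and Tlr2, Tlr4 and Tlr6 were highest in myeloid classes. Tlr1 was at 51.9 ± 4.90 CPM in MZB-like and 47.5 ± 8.06 in naive B-like cells (SD, n = 4), with overlapping ranges, and at 17.7 in T-like and 2.82 in plasma cell-like cells. Tlr2 was at 92.9 ± 22.8 CPM in monocyte or macrophage-like cells and 21.0 ± 2.38 in cDC-like cells, whose ranges did not overlap. Tlr4 reached 61.9 CPM in neutrophil-like cells, counted in the 2 total libraries of batch 1 only because those of batch 2 held 4 and 16 such cells, and 44.7 ± 14.6 in monocyte or macrophage-like cells. In naive B-like cells Tlr4 was at 14.1 CPM, above the 1.22 of T-like cells. Tlr6 was at 25.1 ± 17.8 CPM in neutrophil-like cells and 7.23 ± 1.11 in monocyte or macrophage-like cells. B1-like cells, an innate-like subset, held 1.56 to 5.96 times the Tlr2 of naive B-like cells, higher in 8 of 8 libraries, on 6 to 23 UMIs per B1-like library. Their Tlr6 was 1.18 to 2.39 times the naive level on 4 to 24 UMIs, but after doublets were removed it was higher in 5 of 8 libraries.

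Cd180 was read in every B class and was lowest of them in plasma cell-like cells. Its order in the total libraries ran from MZB-like (449 ± 107 CPM, SD, n = 4) through B1-like (346 ± 78.3), pre-germinal center B-like (pre-GCB-like, 289 ± 78.4) and naive B-like (264 ± 39.5) to GCB-like (211 ± 36.9), each overlapping the next. Plasma cell-like cells held 36.7 ± 13.8 CPM and T-like cells 21.3. Within libraries, MZB-like cells held 1.46 to 1.86 times and plasma cell-like cells 0.100 to 0.174 times the naive level, in 8 of 8. These are shares of UMIs, and plasma cell-like cells were much deeper. Their median was 18350 to 31835 UMIs per cell, against 2689 to 5552.5 in naive B-like cells. The part of depth in their lower share was not tested. pDC-like cells, at 291 CPM, and monocyte or macrophage-like cells, at 139 ± 43.9, also held Cd180.

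The chaperone Unc93b1 was highest in pDC-like cells (804 ± 63.4 CPM, SD, n = 4), with 397 ± 23.3 in naive B-like, 249 ± 34.3 in GCB-like, 177 ± 32.0 in plasma cell-like and 43.4 in T-like cells. T-bet+ B-like cells held 1.26 to 1.88 times the naive level in 5 of 5 libraries. The adaptor Myd88 was highest in neutrophil-like (70.7 CPM) and monocyte or macrophage-like cells (41.2 ± 20.2), and among B cells it was higher in GCB-like cells (20.6 ± 0.996) than in naive B-like cells (11.5). Within libraries the GCB-like level of Myd88 was 1.36 to 2.16 times the naive level in 8 of 8, while Tlr1 (0.109 to 0.666), Tlr4 (0.280 to 0.679), Cd180 (0.589 to 0.928) and Unc93b1 (0.484 to 0.823) were lower in 8 of 8. These are shares of UMIs, and GCB-like cells were deeper, with a median of 12189 to 19776 UMIs per cell against 2689 to 5552.5 in naive B-like cells. Counted per cell, Unc93b1 gave 3.82 to 5.98 UMIs in GCB-like cells against 1.32 to 2.53 in naive B-like cells, and Cd180 gave 2.775 to 5.27 against 0.675 to 1.64, so that both were higher per cell while lower in share.

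The genotypes were compared on UMIs summed per library and class, by edgeR's quasi-likelihood test with Benjamini-Hochberg adjustment over all genes tested, at an adjusted p of 0.05. With 2 libraries a group, 1 from each batch, the p-values without a block measure the spread between pools of mice and between batches together. Because a number in the labels marks a shared batch, each comparison was also fitted with the batch as a block. With the block, 1 residual degree of freedom was left in a comparison of 4 libraries, so that its spread was taken largely from other genes. In sums of this kind, fewer cells that express a gene and less RNA per cell cannot be told apart. 

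The largest differences lay in YFP+ pre-GCB-like cells, activated B cells marked by Myc and Il4i1 on the way to the germinal center. Of 10 members tested, 2 were called, Cd180 and Tlr3, both lower in cKO YFP+, beside 11.4% of all 12824 genes tested. The median log2 change of the 10 members was -0.66, against 0.01 over all genes. Cd180 stood at 317 and 234 CPM in control YFP+ and at 140 and 84.5 CPM in cKO YFP+. The groups did not overlap, and within batches 1 and 2 the cKO level was 0.441 and 0.361 times the control level. Its log2 change was -1.17 ± 0.26 (SE), with an adjusted p of 0.0155 by edgeR. Tlr3 stood at 2.36 and 1.70 CPM against 0.381 and 0.349, on 8 and 4 UMIs against 12 and 13, and fell by 2.34 ± 0.62 on the log2 scale (edgeR adjusted p = 0.0351). DESeq2, run as another tool, called Cd180 and Unc93b1 but not Tlr3.

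Of the other members in these cells, Unc93b1 was at 383 and 411 CPM against 251 and 209, Tlr1 at 35.4 and 25.1 against 20.9 and 10.9, and Myd88 at 13.3 and 17.0 against 21.5 and 25.1. None of the 3 passed the test without the block. Their log2 changes were -0.67 ± 0.22, -0.82 ± 0.29 and 0.77 ± 0.25, with edgeR adjusted p-values of 0.0809, 0.0992 and 0.0771. With the batch block all 3 passed, Unc93b1 (1.22e-05), Tlr1 (0.00012) and Myd88 (0.00134), as did Cd180 (4.39e-17) and Tlr3 (0.0129) by edgeR, which made 5 members beside 30.7% of all genes. Tlr7 was nearly equal, at 29.5 and 23.9 CPM against 27.8 and 22.3, with a log2 change of 0.03 ± 0.21. Tlr9, Tlr4, Tlr2 and Tlr6 had log2 changes of -1.03, -0.65, -0.07 and 0.15, none called.

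**Figure D2:**
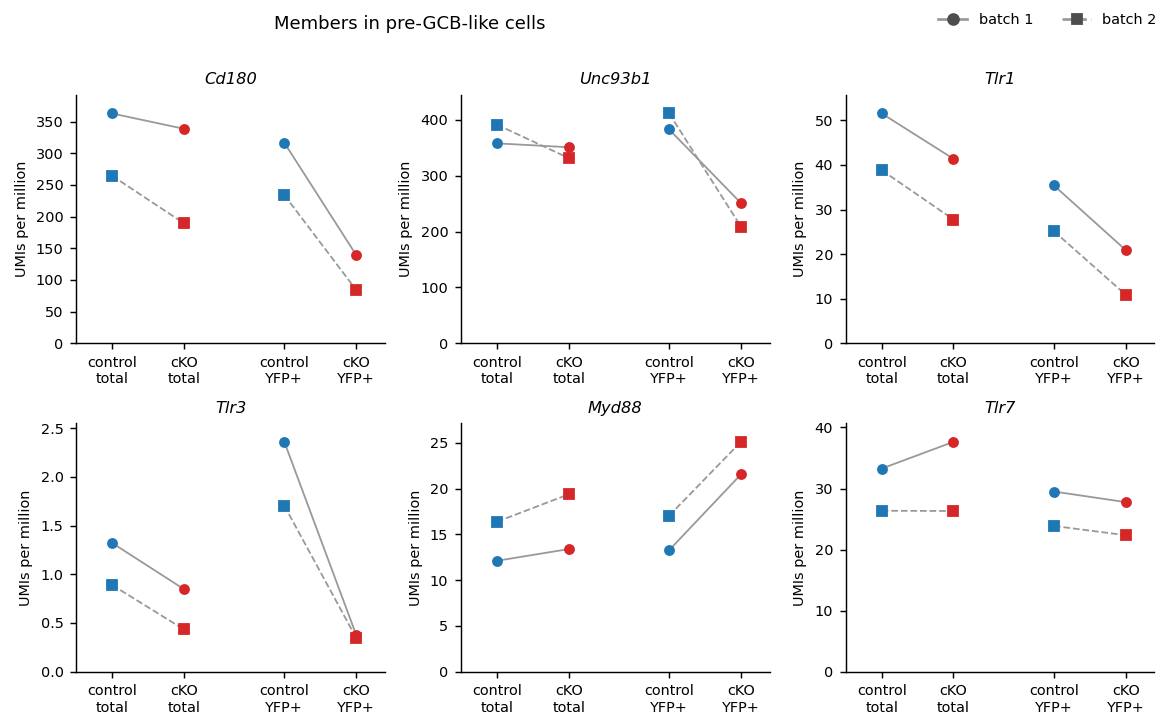
Levels (CPM) of Cd180, Unc93b1, Tlr1, Tlr3, Myd88 and Tlr7 in pre-GCB-like cells of all 8 libraries, by group, with the libraries of a batch joined by lines. Cd180 is at 140 and 84.5 CPM in cKO YFP+ and at 189 to 363 CPM in the other 6 libraries, while Tlr7 overlaps between the genotypes.

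The class joined clusters 5, 10 and 18, which the genotypes filled unequally, and the cKO YFP+ cells were deeper. Cluster 10, led by Fabp5, Socs2 and Timd2, held 58 and 33 cells in control YFP+ against 650 and 829 in cKO YFP+, and cluster 18 held none in control YFP+ against 266 and 258 in cKO YFP+. The median UMI count of pre-GCB-like cells was 7616 and 5214 in control YFP+ against 10854 and 13473 in cKO YFP+. Counted per cell, Cd180 gave 3.22 and 1.62 UMIs in control YFP+ against 2.45 and 1.73 in cKO YFP+, which overlap, and Unc93b1 gave 3.895 and 2.85 against 4.41 and 4.28, with both cKO values above the control values. Myd88 gave 0.135 and 0.118 UMIs per cell against 0.378 and 0.514. The test was run on shares of UMIs, in which Cd180 and Unc93b1 were lower, and the part of the deeper cKO YFP+ cells in the difference was not tested. After every cell was thinned to 3000 UMIs, 56.6% and 44.3% of control YFP+ cells held a Cd180 UMI against 41.5% and 30.1% of cKO YFP+ cells, compared with 3.02% to 4.55% of T-like cells in the total libraries. Without thinning the shares were 82.9% and 65.2% against 80.6% and 69.9%, and 8, 41, 19 and 15 shallower cells were left out.

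Compared cluster by cluster, a choice made after the data were seen, Cd180 was called in cluster 10 and not in cluster 5, and the difference between the clusters was not tested. In cluster 10 it stood at 216 and 155 CPM in control YFP+ against 71.9 and 54.2 in cKO YFP+. That was on 277 and 89 UMIs in 58 and 33 cells against 1543 and 1505 UMIs in 650 and 829 cells. The log2 change was -1.45 ± 0.21 (edgeR adjusted p = 0.000444). Unc93b1 in cluster 10 stood at 348 and 379 CPM against 162 and 143, a log2 change of -1.12 ± 0.18 (edgeR adjusted p = 0.0012). These were the 2 of 7 members called there, beside 14.0% of all genes (with the block the same number, beside 20.3%). The cKO YFP+ cells of cluster 10 were deeper, with a median of 30284.5 and 30671 UMIs against 18742 and 17624 in control YFP+. Counted per cell, Cd180 and Unc93b1 were also lower in both cKO YFP+ libraries than in both control YFP+ libraries. The part of depth in these differences was not tested. In cluster 5 none of 7 members was called by edgeR, beside 1.0% of all genes, and DESeq2 called none. There 1 member had an unadjusted edgeR p under 0.05, beside 852 of 10203 genes. Cd180 in cluster 5 was at 378 and 259 CPM against 306 and 182, a log2 change of -0.31 ± 0.31, and Unc93b1 was at 404 and 422 against 423 and 390. With the block, Myd88 was the 1 member called in cluster 5 (0.90 ± 0.27, edgeR adjusted p = 0.0135, beside 10.2%), at 8.08 and 15.2 CPM against 19.6 and 20.6.

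In the total libraries the same class, with cluster 10 holding 44 to 60 cells a library, showed no called member among 9 tested by edgeR (beside 0.331% of all genes), 0 with an unadjusted p under 0.05 and 0 by DESeq2. For Cd180 the control libraries gave 363 and 264 CPM against 339 and 189 for cKO, with a log2 change of -0.20 ± 0.30. The difference between the effects in the 2 sorts was -0.96 ± 0.43 for Cd180 and -0.57 ± 0.26 for Unc93b1, neither called (edgeR adjusted p = 0.534 and 0.544, beside 0.0% of all genes, with 0 of 9 members under an unadjusted p of 0.05 and 0 called by DESeq2). With the pool of mice as a block, both were called (Cd180 -0.95 ± 0.11, edgeR adjusted p = 3.17e-05, and Unc93b1 -0.57 ± 0.11, edgeR adjusted p = 0.00197), beside 14.9% of all genes.

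Over all B-lineage cells of the YFP+ libraries, Tlr3 was the 1 member of 10 called, beside 7.72% of 16117 genes. It was at 2.83 and 2.56 CPM in control YFP+ against 0.909 and 0.754 in cKO YFP+, on 239 and 268 UMIs against 77 and 76. The groups did not overlap, and the log2 change was -1.72 ± 0.30 (edgeR adjusted p = 0.0186), called in 11 of 11 alternatives. Cluster 2, which no marker list named, held no cell in the control YFP+ libraries and 1461 and 3867 cells in cKO YFP+. It made up 15.5% and 37.6% of the B-lineage cells there. It entered all sums over B-lineage cells but no class compared here, and its part in the differences was not tested. MZB-like and T-bet+ B-like cells made up 21.3% and 17.5% of the B cells in control YFP+ against 4.49% and 1.71% in cKO YFP+. They gave 68.2% and 65.7% of the Tlr3 UMIs in control YFP+ against 23.4% and 7.89% in cKO YFP+, and the part of these shares in the difference was not tested. Within MZB-like cells Tlr3 was also lower, at 16.3 and 11.8 CPM against 5.94 and 3.39, on 120 and 80 UMIs against 16 and 4. That difference of -1.44 ± 0.39 was not called by edgeR (adjusted p = 0.392, 0 of 10 members called beside 0.189% of all genes, 0 by DESeq2). At an unadjusted edgeR p under 0.05 there was 1 member, beside 393 of 10610 genes. With the block the Tlr3 difference in MZB-like cells was called (-1.49 ± 0.32, edgeR adjusted p = 0.00788, beside 2.64%). The total libraries followed the same direction without passing the test, at 3.83 and 4.19 CPM in control against 2.52 and 1.04 in cKO. The log2 change was -1.13 ± 0.40 (edgeR adjusted p = 0.493, 0 of 10 members beside 0.0136%, 0 by DESeq2). At an unadjusted edgeR p under 0.05 there was 1 member, beside 1197 of 14673 genes. There Tlr3 was called in 1 of 11 alternatives, whose log2 changes ran from -1.81 to -0.67. That was the fit without library 1 of cKO total (-1.81), which left 1 cKO library.

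Tlr7 was higher in cKO in naive B-like cells of both sorts, but passed the test only with the batch block. The total libraries gave 17.8 and 14.7 CPM in control against 27.5 and 17.9 in cKO, and the YFP+ libraries 23.7 and 11.99 against 31.5 and 18.3. The genotypes overlapped in the YFP+ sort and nearly touched in the total sort (17.8 in control and 17.9 in cKO), while within batches the ratio was 1.55 and 1.21 in total and 1.33 and 1.52 in YFP+. Without the block the log2 change was 0.57 ± 0.23 in total (edgeR adjusted p = 0.779, 0 of 10 members beside 0.246%, 0 by DESeq2). At an unadjusted edgeR p under 0.05 there was 1 member in total, beside 774 of 12577 genes. In YFP+ the log2 change was 0.60 ± 0.34 (edgeR adjusted p = 0.779, 0 of 10 beside 0.416%, 0 at an unadjusted p under 0.05, 0 by DESeq2). With the block it was 0.55 ± 0.11 in total (edgeR adjusted p = 3.3e-06, beside 19.9%) and 0.62 ± 0.14 in YFP+ (edgeR adjusted p = 0.00606, beside 15.0%). Clusters 0, 1 and 4 make up this class, with most control cells in cluster 0 and most cKO cells in clusters 1 and 4. Tlr7 is X-linked, and the cKO pool of batch 1 was the one that held Xist RNA. The part of this pool in the difference was not tested.

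Transitional B-like cells, recent emigrants from the bone marrow, showed the same for Tlr7 in the total libraries, at 22.8 and 14.4 CPM in control and 31.3 and 23.1 in cKO. That was 0.60 ± 0.28 without the block (0 of 9 members called by edgeR beside 0.00919%, 0 at an unadjusted p under 0.05, 0 by DESeq2) and 0.58 ± 0.17 with it (edgeR adjusted p = 0.0376, beside 3.14%). The YFP+ libraries held 23 to 178 transitional B-like cells each and were not compared. In MZB-like and B1-like cells the genotypes overlapped. MZB-like cells held 69.6 and 31.7 CPM in control YFP+ against 61.2 and 32.2 in cKO YFP+, and B1-like cells 40.8 and 18.7 against 29.5 and 27.4. The difference between the 2 sorts in the naive genotype effect was 0.04 ± 0.49 for Tlr7, with 0 of 10 members called by edgeR (beside 0.0%), 0 at an unadjusted p under 0.05 and 0 by DESeq2. Over all B-lineage cells of the YFP+ libraries the blocked fit called Tlr3 and Tlr7 (Tlr7 0.69 ± 0.18, edgeR adjusted p = 0.0316), 2 members beside 19.7%, where Tlr7 was at 22.5 and 10.3 CPM in control and 29.0 and 21.5 in cKO.

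**Figure D3:**
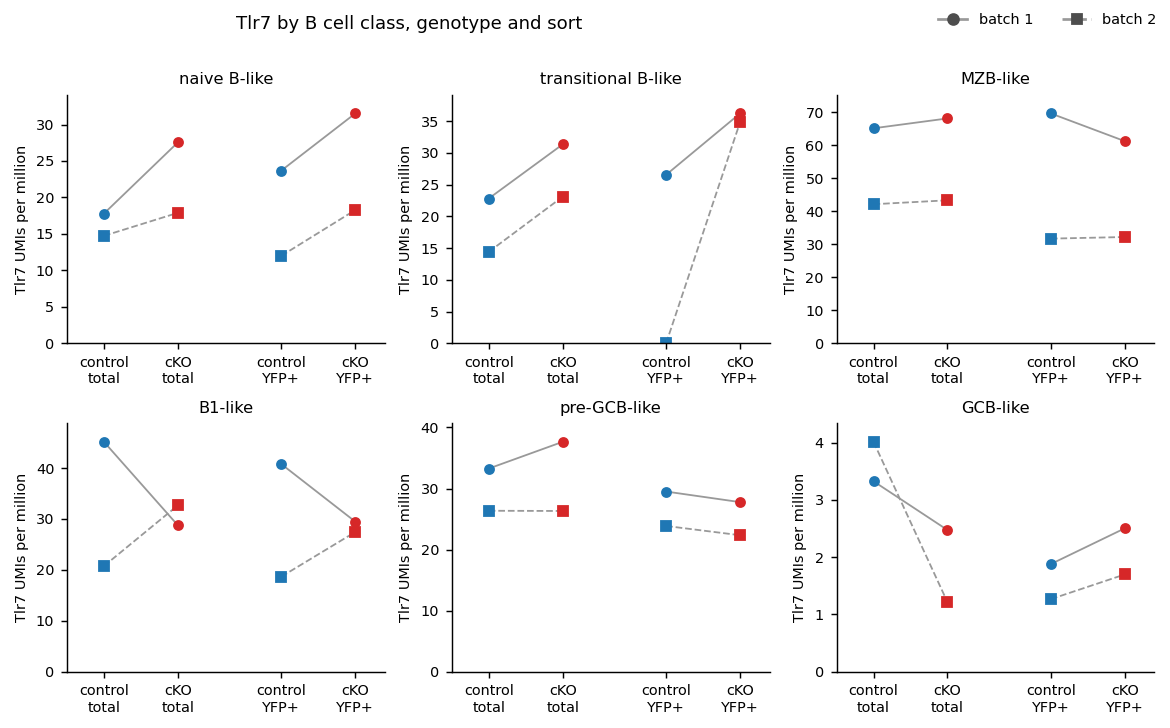
Level of Tlr7 (CPM) in 6 B cell classes of the 8 libraries, by group, with libraries of a batch joined by lines. In naive and transitional B-like cells the cKO library lies above the control library of its batch, and GCB-like cells of the total libraries lie at 1.22 to 4.01 CPM. The point at 0 is the control YFP+ library of batch 2, with no Tlr7 UMI in 41 transitional B-like cells, which allows up to 19.5 CPM.

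In YFP+ GCB-like cells 4 of 9 members tested had an unadjusted edgeR p under 0.05, beside 1131 of all 12202 genes tested. None was called by edgeR (beside 1.22%) or by DESeq2. The members' median log2 change was -0.59, against -0.02 over all genes. Cd180 was at 273 and 221 CPM in control YFP+ against 176 and 143 in cKO YFP+ (-0.59 ± 0.22, edgeR adjusted p = 0.386), and Tlr1 was at 20.9 and 13.2 against 10.9 and 7.04 (-0.85 ± 0.29, edgeR adjusted p = 0.312). With the block both were called, Cd180 at an edgeR adjusted p of 0.0153 and Tlr1 at 0.00188, beside 8.42%. Tlr3 was at 0.901 and 0.838 CPM against 0.147 and 0.243, but on a single UMI in each cKO library. The cKO YFP+ GCB-like cells were deeper, with a median of 16082.5 and 17649 UMIs against 12945 and 12189. Counted per cell, Cd180 gave 4.17 and 3.01 UMIs in control against 3.275 and 2.775 in cKO, which overlap, and the part of depth in the difference was not tested.

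In YFP+ B1-like cells Cd180 was at 391 and 314 CPM in control and 271 and 203 in cKO. It was not called without the block (-0.47 ± 0.27, edgeR adjusted p = 0.642, 0 of 9 members beside 1.65%, 0 at an unadjusted p under 0.05, 0 by DESeq2) and was called with it (-0.48 ± 0.14, edgeR adjusted p = 0.00715, beside 15.3%). Here too the cKO YFP+ cells were deeper, with a median of 8810 and 8382 UMIs against 5932.5 and 4375.5. Counted per cell, Cd180 gave 2.596 and 1.602 UMIs in control against 2.553 and 1.932 in cKO, which overlap, and the part of depth was not tested. In MZB-like cells Cd180 stood at 572 and 402 CPM against 475 and 301, with overlap. In plasma cell-like cells none of 7 members was called by edgeR (beside 0.474%) or DESeq2, and 0 had an unadjusted p under 0.05. In cluster 9, which no marker list named and which held 835 and 1096 control and 69 and 54 cKO YFP+ cells, the same was found for 7 members (beside 0.405%), a comparison added after the data were seen.

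**Figure D4:**
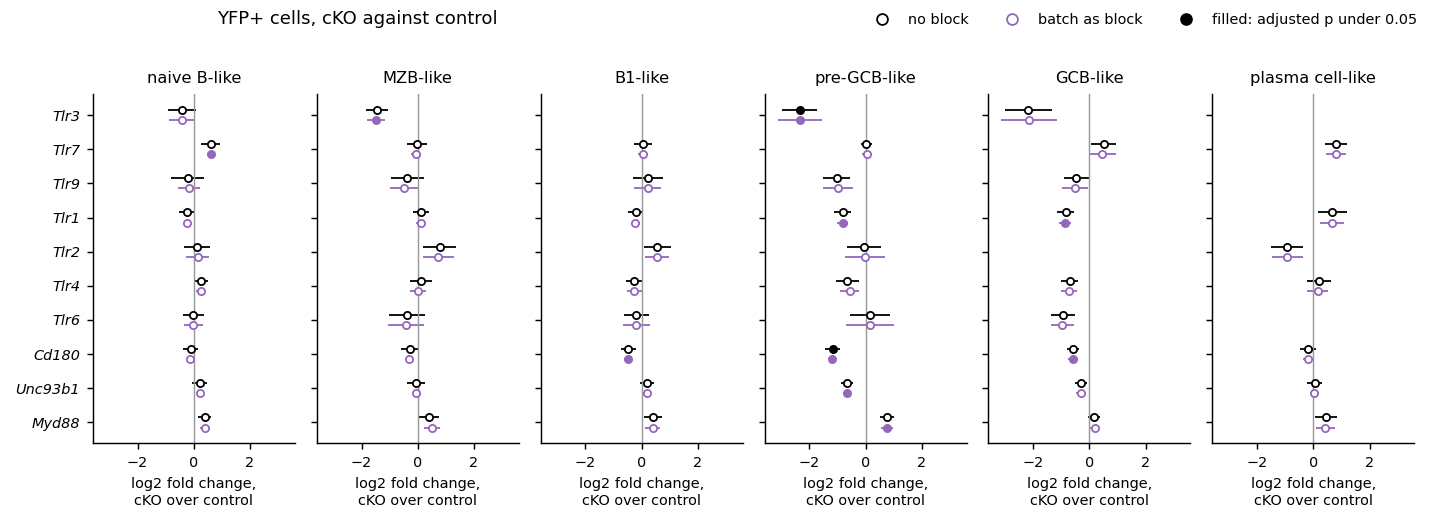
Log2 change (cKO YFP+ over control YFP+) ± SE of each member in naive, MZB-like, B1-like, pre-GCB-like, GCB-like and plasma cell-like cells, without and with the batch block, with filled points where the adjusted p is under 0.05. Without the block only Cd180 and Tlr3 in pre-GCB-like cells are filled.

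No genotype difference was called by edgeR or by DESeq2 in the other classes of the total libraries that were compared, and 0 members had an unadjusted p under 0.05. The members tested were 10 in MZB-like cells (beside 0.0353%), 6 in B1-like (0.25%), 6 in monocyte or macrophage-like (0.0%), 8 in cDC-like (0.0%) and 4 in pDC-like cells (0.0%). GCB-like, plasma cell-like and interferon-response B-like cells of the total libraries were not compared. Tlr4 and Cd180 in monocyte or macrophage-like cells had log2 changes of 0.70 ± 0.43 and 0.64 ± 0.33, Tlr3 in cDC-like cells 0.08 ± 0.35 and Tlr7 in pDC-like cells 0.13 ± 0.29. A library held 61 to 192 monocyte or macrophage-like cells and 42 to 63 pDC-like cells. The YFP+ libraries held at most 26 cells of any myeloid class each, so the genotypes were not compared there.

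Between the sorts, naive B-like cells of the YFP+ libraries were set against those of the total libraries of the same genotype. The YFP+ libraries also held T-like cells, 4.075% and 0.566% of all cells in control and 4.036% and 0.325% in cKO. Whether unmarked naive B-like cells entered them too was not tested. None of 10 members was called in control (beside 0.00773%) or in cKO (beside 0.0155%) by edgeR or DESeq2, and 0 had an unadjusted p under 0.05. With the pool of mice as a block, Unc93b1 was the 1 member called in each, higher in the YFP+ sort by 0.19 ± 0.05 in control (edgeR adjusted p = 0.0134, beside 5.66%) and by 0.27 ± 0.05 in cKO (edgeR adjusted p = 3.96e-05, beside 19.1%). Without the block its log2 change in control was 0.20, and -0.0055 when control YFP+ replicate 2 was left out. In cKO all 15 alternatives kept the direction (0.19 to 0.32). The Unc93b1 levels were 363 and 413 CPM in control total against 394 and 476 in control YFP+. The cKO libraries gave 407 and 406 in the total against 471 and 463 in the YFP+ sort. These are shares of UMIs, and the YFP+ naive B-like cells were shallower. Their median was 3864 and 2689 UMIs in control YFP+ against 5089 and 4123 in control total. In cKO it was 4925 and 5083 in the YFP+ sort against 5272 and 5552.5 in the total. The part of depth in the difference between the sorts was not tested.

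The rest of the pathway, a list of 34 further genes found in the table, had most calls in the comparisons that also had most calls over all genes. In YFP+ pre-GCB-like cells 6 of 28 tested were called by edgeR, beside 11.4% of all genes, 3 higher and 3 lower in cKO, and the list's median log2 change was -0.16 against 0.01 over all genes. Irak2, a kinase downstream of Myd88, was at 90.9 and 70.3 CPM in control YFP+ against 28.0 and 17.4 in cKO YFP+ (-1.71 ± 0.24). Irak3, an inhibitor of the Irak kinases, was at 41.0 and 28.1 against 12.4 and 10.9 (-1.44 ± 0.22), and Pik3ap1, an adaptor to phosphoinositide 3-kinase, had a log2 change of -1.06 ± 0.25. Ticam2, the adaptor that links Tlr4 to Ticam1, was higher, at 5.90 and 5.54 CPM against 28.6 and 24.1 (2.33 ± 0.26), and it overlaps Tmed7 on the same strand. Tlr12, a receptor for profilin of protozoa, was at 0.295 and 0.426 CPM against 5.87 and 5.26 (4.11 ± 0.59). It had 1 UMI in each control library and 185 and 196 UMIs in the larger cKO sums. Ly96, the partner of Tlr4, was at 17.7 and 19.2 CPM against 28.6 and 32.9 (0.88 ± 0.23). The edgeR adjusted p-values of these 6 ran from 0.000546 to 0.0351. Ticam2 and Irak2 were called in 11 of 11 alternatives, Tlr12, Irak3 and Pik3ap1 in 10 of 11 (Tlr12 with log2 changes of 1.88 to 4.83) and Ly96 in 6 of 11 (0.39 to 1.02). With the block 9 were called, 3 higher and 6 lower, beside 30.7%.

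Fewer were called elsewhere. Ticam2 was the 1 gene of 27 called in YFP+ B1-like cells (1.80 ± 0.31, edgeR adjusted p = 0.0179) and in cluster 5 (2.48 ± 0.39, edgeR adjusted p = 0.0129), beside 1.65% and 1.0% of all genes. Over all YFP+ B-lineage cells 3 of 29 were called, beside 7.72%, Tlr12 (1.70 ± 0.31) and Ticam2 (1.53 ± 0.23) higher and Tirap, a sorting adaptor for Tlr2 and Tlr4, lower (-1.03 ± 0.22, called in 8 of 11 alternatives). In cluster 10, 6 of 28 were called, beside 14.0%, 3 higher (Tlr12, Ticam2 and Ly96) and 3 lower (Pik3ap1, Irak2 and Ly86). Ly86, the partner of Cd180, was at -1.13 ± 0.20 (edgeR adjusted p = 0.00209), so that Cd180 and its partner were both lower in share there. None of the list was called in YFP+ naive B-like, MZB-like, GCB-like or plasma cell-like cells, nor in any comparison of the total libraries without the block. With the block the counts in the YFP+ libraries were 7 in B1-like cells (2 higher, 5 lower, beside 15.3%), 4 in cluster 5 (1 and 3, beside 10.2%), 7 in cluster 10 (4 and 3, beside 20.3%) and 4 over all B-lineage cells (2 and 2, beside 19.7%). They were 6 in naive B-like (3 and 3, beside 15.0%), 2 in GCB-like (both lower, beside 8.42%) and 0 in MZB-like and plasma cell-like cells. In the total libraries the block gave 5 in naive B-like cells (1 and 4, beside 19.9%). Over all B-lineage cells there it gave 4 (all lower, beside 1627 of 14673 genes). It gave 3 in total pre-GCB-like cells (1 and 2, beside 766 of 10868 genes). In total cDC-like cells it gave 1 (higher, beside 21 of 9279 genes), and the other total classes compared gave 0. Between the sorts it gave 10 in cKO naive B-like cells (3 and 7, beside 19.1%) and 0 in control.

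Some genes followed the members closely over the 56 class-by-library sums of the total libraries, by Pearson's r of log2(CPM + 1) among 12666 genes. The points share libraries and depth, so these values are a description. The closest 3 to Cd180 were Rubcnl (0.935), Ly86 (0.933) and Vav2 (0.922), and the closest member was Unc93b1 (0.856). The closest to Unc93b1 was the cathepsin gene Ctsh (0.937), followed by Ly86 (0.925) and Rubcnl (0.911). Tlr7 was closest to Plac8 (0.904), Asph (0.863) and Plekhm3 (0.861), and Tlr2 to Lyz2 (0.921), the lysozyme gene of myeloid cells. Tlr3 had Etv3 (0.751), Tlr9 Dclre1c (0.807), Tlr1 Bcl9 (0.813) and Myd88 Mrpl33 (0.820) as the closest gene.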

How the data were processed

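The authors deposited whole-number UMI counts per gene and cell for each of 8 mouse spleen libraries (SeekOne DD 3′ kit). The aligner and annotation are not stated in the sources used here, and the submitters' processing notes name the builds GRCm38 and mm10. The study's cell filter was applied, which asks for over 200 UMIs and over 100 genes and allows 10% of UMIs from mitochondrial genes. Clusters were built in Python 3.11.15 (igraph 0.11.9) from 2000 variable genes without the members and the pathway genes, 30 principal components, 20 neighbours and resolution 1, first by lineage and then within it. They were named from marker lists with thresholds set after the clusters were seen (mean marker scores of 0.4 for lineages and 0.65 for classes), so that differences from the study may come from rebuilt names. Doublets were kept, and removing 8% of cells per library was an alternative. The members and gene lists were chosen with earlier results of these data known.

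UMIs were summed per library and class with at least 20 cells per library, filtered with filterByExpr, scaled by TMM and tested in edgeR 4.0.16 (R 4.3.3), as tested on simulated data, with DESeq2 1.42.0 as an alternative. The rule was to name all 10 members in each comparison by value or range, and where few or none were called, counts are given for the rest. Of the pathway list, the genes called are named, at most 6 per comparison by size. Likeness was taken over classes of at least 20 cells and genes of at least 5 CPM. The likeness of Tlr4 and Tlr6 is not reported here. The labels give the replicate number as the batch. Same-numbered libraries deviated together in all 18 pairs of groups and classes checked (correlations of 0.344 to 0.821), so the batch block was used as the second fit. Replicate libraries differed far beyond sampling noise (chi-square per degree of freedom of 177 to 392) and were all kept as separate samples. Other alternatives were no filter on low counts, resolutions of 0.5 and 1.5, and leaving out each library in turn. Promoter sequences were copied from RefSeq.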

Additional observations from a re-analysis of the deposited data

Results flagged for a closer look

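The effect of genotype on 2 of 9 members differed between the YFP+ and the total libraries when the pool of mice was a block. In the same fit 14.9% of all 11475 genes tested were called. In pre-GCB-like cells the YFP+ effect minus the total effect was -0.95 ± 0.11 (log2) for Cd180 and -0.57 ± 0.11 for Unc93b1, with edgeR adjusted p-values of 3.17e-05 and 0.00197. Without the block the same differences were -0.96 ± 0.43 and -0.57 ± 0.26 and were not called (edgeR adjusted p = 0.534 and 0.544). Cluster 10 held 44 to 60 pre-GCB-like cells in each total library and 650 and 829 in the cKO YFP+ libraries, and the part of these unequal shares in the difference was not tested.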

How the results depend on the processing

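Of 260 alternative counts of members called, 239 stayed within 1.5 times the reported count. Most comparisons reported 0 members, and 0 again was counted as unchanged, so this number says little about the members called. The replicate block called 2 members over all YFP+ B-lineage cells, 1 in YFP+ naive B-like, 5 in pre-GCB-like, 2 in GCB-like, 1 in MZB-like and 1 in B1-like cells and 1 in cluster 5, 2 for the difference of the sorts in pre-GCB-like cells, 1 in total naive B-like and 1 in total transitional B-like cells, and 1 between the sorts in each genotype, and it changed no other count of members. For YFP+ pre-GCB-like cells no filter gave 4, resolution 0.5 gave 4 and resolution 1.5 gave 1. Leaving out 1 library gave 0 to 5 members in YFP+ pre-GCB-like cells (0 without cKO YFP+ replicate 2, 5 without control YFP+ replicate 2), 1 to 2 over all YFP+ B-lineage cells, 0 to 1 in YFP+ GCB-like cells and 0 to 1 over all total B-lineage cells. An arm left with 1 library was assumed to vary like the others. The shares of all genes called without a filter, at the other resolutions or without a library are not given here. The counts of those fits therefore show nothing particular to the members.

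Tlr3 over all YFP+ B-lineage cells was called in 11 of 11 alternatives (-1.77 to -1.58), and Cd180 and Unc93b1 in cluster 10 in 8 of 8. Cd180 in YFP+ pre-GCB-like cells was called in 10 of 11 (-1.53 to -0.86), not without cKO YFP+ replicate 2 (-0.89, edgeR adjusted p = 0.201). Tlr3 there was called in 6 of 9 (-2.73 to -1.96), not by DESeq2 (adjusted p = 0.098), at resolution 1.5 (edgeR 0.12) or without control YFP+ replicate 1 (edgeR 0.232). Among members called in at least 1 fit, 2 fold changes reversed when a library was left out. Tlr4 in YFP+ pre-GCB-like cells gave 0.19 without control YFP+ replicate 1 (range over left-out libraries -1.06 to 0.19). Unc93b1 between the sorts in control gave -0.0055 without control YFP+ replicate 2 (range -0.0055 to 0.38). Neither was called in the fit of all libraries without the block. Each was called in 1 alternative, for Unc93b1 the one with the pool of mice as a block. Among members never called, 214 of 1965 alternative fold changes changed sign. The cause of these changes was not tested. Members under a few CPM rest on few UMIs (Tlr3, Tlr6 and Tlr9 in most B classes), which limits the precision of their differences. Memory B-like cells (no cluster so named), T-bet+ B-like cells (24 and 16 in cKO YFP+) and total neutrophil-like cells (4 and 16 in batch 2) gave no comparison. Interferon-response B-like cells of both sorts, and GCB-like and plasma cell-like cells of the total libraries, were not compared.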
